A study of Mus musculus with 4 samples.

Results

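Cytosolic sulfotransferases were described in the livers of obese mice that had received galanin-like peptide (GALP, a hypothalamic neuropeptide) or saline by the nose. The genes were the 9 Sult genes Sult1a1, Sult1b1, Sult1c2, Sult1d1, Sult1e1, Sult2a8, Sult2b1, Sult3a1 and Sult5a1, and all of their probes on a whole mouse genome array were taken by gene name, which gave 10 of 41037 probes and 9 of 26518 gene names. Sult2a8 carries an older name on the array. The genes were selected on earlier GALP over control values of these same arrays, so those values are given below as a description, without a test. Male C57BL/6J mice that weighed at least 40 g after 14 weeks of a high-fat diet were used (bought at 8 weeks of age). All groups shared this diet-induced obesity, and the high-fat diet was continued during treatment. Before treatment, all mice were acclimatized with intranasal saline once daily. Porcine GALP, 1 nmol in saline with 5% α-cyclodextrin, was given to 8 mice in 2 µL once daily for 11 days, and the control group of 8 mice received saline. For the arrays, liver RNA was pooled from the 4 GALP mice that lost more weight (greater-loss pool), from the 4 that lost less (less-loss pool) and from all 8 saline mice (control pool).

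Both GALP pools were set against the control pool on arrays of 1 slide, each on 2 arrays that differ in which dye, Cy3 or Cy5, the GALP RNA carried. Each value is a log2 ratio of GALP over control, the mean of the 2 arrays of a pool is the value of that pool, and means are given ± SD over n = 2 pools. All ratios share the control pool, which is 1 sample, and neither the SD nor any test holds the spread between control mice. The GALP mice were divided by the weight that they had lost, and a pool hides the spread between its mice. Each array held 43379 spots, between 40.5% and 46.7% of them were well above background in a channel and no spot was saturated. Precision is limited by there being only 2 GALP pools and 1 control pool, as both arrays of a pool carry the same extracts. All 7 of the 10 listed hepatocyte markers found on the array were well above background in all 8 channels, among them albumin (Alb).

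Cytosolic sulfotransferases transfer a sulfonate group from the donor PAPS (3'-phosphoadenosine 5'-phosphosulfate) to small molecules such as phenols, catecholamines, thyroid hormones, steroids and bile acids. The product is more soluble in water and is usually inactive at the receptor of the parent hormone, and sulfatases can release the hormone again. In the liver these enzymes work beside the glucuronosyltransferases in clearing hormones, bile acids and drugs. A separate family of sulfotransferases in the Golgi acts on sugar chains, lipids and tyrosines of secreted proteins.

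Of each 60-base probe, bases 21 to 50 are shown for the chromosome 5 neighbours Sult1e1, Sult1d1 and Sult1b1 (both probes), for Sult2a8 with the lowest ratio, and for Sult1c2 and Sult5a1, whose pools had opposite signs. Capitals mark the longest run that any 2 member probes have in common. This run of 10 bases is found in the probes of Sult1d1 and Sult1e1, whose genes are neighbours.
Sult1e1: ccttgTGTCTGAAATtagagtagtctgaaa
Sult1d1: tagttcctaatagcttccTGTCTGAAATag
Sult2a8: ggaagattccaatacagagctaatcagatt
Sult1c2: gccaaagattgtgtctctgactctgtgatt
Sult5a1: gctgtctaccagtccaagatgggtgactct
Sult1b1, brighter probe: acagacattcagagtgcctaatctacaact
Sult1b1, dimmer probe: caacctcaagttataggaaaaaataataag
No member probe had a longer run in common with a probe of another sulfotransferase either, over 145 pairs. The probes of Sult1e1 (chromosome 5, 88005187 to 88005246), Sult1d1 (chromosome 5, 87984658 to 87984717) and Sult1b1 (chromosome 5, 87943946 to 87944005 for the brighter probe) lie in 1 cluster of the mouse genome build mm9, on the minus strand. The probe of Sult2a8 (chromosome 7, 14996296 to 14996355, minus strand) lies in the cluster of the Sult2a genes.

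Of the 9 genes, 7 were well above background in all 8 channels. The Sult1e1 log2 ratio was highest and that of Sult2a8 lowest among them. Sult1a1 and Sult1d1 had positive ratios on all 4 arrays, Sult1b1 was near 0, and Sult1c2 and Sult5a1 had opposite signs in the pools. Sult2b1 and Sult3a1 were at or near background. The median of the 7 mean ratios was 0.07, beside -0.01 over 10667 genes with such signal, and the mean ratios of the members ran from -0.52 to 1.12, whereas all genes ran from -0.31 at the 5th to 0.30 at the 95th percentile.

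The rule of the methods, as applied here, required that each pool exceed 1.5-fold or lie under 0.75-fold. All 4 arrays had to have the same sign, and the p-value of Feature Extraction (the image software) had to be under 0.01 on each of them. The study gives these fold and p limits and takes changes common to both GALP groups. It does not state that every array must pass, so the rule used here is stricter. By this rule 1 member probe was called higher (Sult1e1) and 0 were called lower. Over all probes this rule called 0.0585% higher and 0.132% lower. The Feature Extraction p-value compares the labelled extracts on 1 array and not groups of mice. Without the p-value the rule called Sult1e1 higher and Sult2a8 lower, beside 0.375% and 0.877% of all probes. As the contrast chose the genes, nothing is read from these counts.

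**Figure D1:**
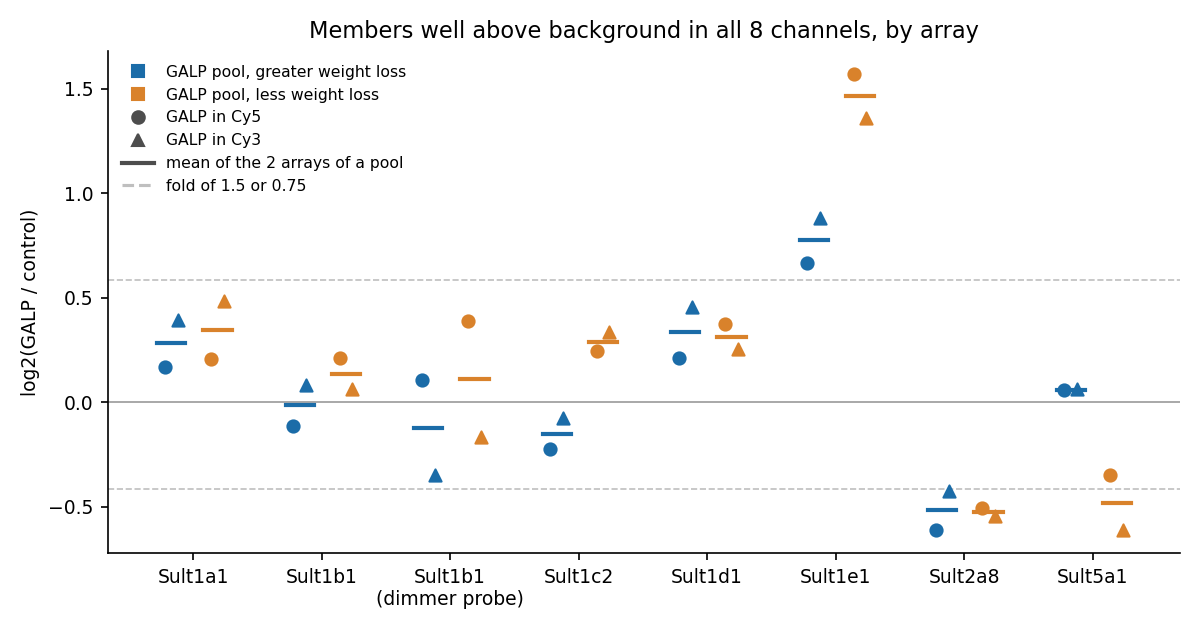
The vertical axis is the log2 ratio of GALP over control for each probe of the 7 members with signal. Points are single arrays (circles with GALP in Cy5, triangles with GALP in Cy3), bars are the mean of the 2 arrays of a pool, blue is the greater-loss pool, orange the less-loss pool, and the dashed lines are folds of 1.5 and 0.75. Sult1e1 lies above the upper line on all 4 arrays, Sult2a8 below the lower line on all 4, and the colours of Sult1c2 and Sult5a1 lie on opposite sides of 0.

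Sult1e1, the estrogen sulfotransferase, sulfonates estradiol and estrone with high affinity and is normally low in the liver of adult male mice. Its processed signal in the control pool was 133, 110, 116 and 116 on the 2 greater-loss arrays (GALP in Cy5, then in Cy3) and the 2 less-loss arrays (in the same order). In the GALP channels of the same arrays it was 211, 202, 344 and 296. The GALP channels were above the control channels on every array, with no overlap, and the 2 highest were those of the less-loss pool. How many of all probes show no overlap was not counted. Nothing is read from overlap, here or for Sult1d1 and Sult2a8 below. The log2 ratio was 0.67 and 0.88 in the greater-loss pool and 1.57 and 1.36 in the less-loss pool. These are pool values of 0.77 and 1.47, or 1.71-fold and 2.76-fold, with a mean of 1.12 ± 0.49 (SD, n = 2). Feature Extraction gave p-values under 0.01 on 4 of 4 arrays.

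The Sult1e1 probe was dim. Before scaling by the software, its mean signal minus the local background was 6.2 to 18.9 in the control channels and 26.3 to 48.4 in the GALP channels. With normexp correction (offset 50) and loess, the mean ratio of Sult1e1 was 0.31 and the gene was no longer called.

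Sult1d1 and Sult1b1 lie beside Sult1e1. Sult1d1 sulfonates catecholamines such as dopamine and other phenols. Its log2 ratio was 0.21 and 0.46 in the greater-loss pool and 0.38 and 0.25 in the less-loss pool, and the mean was 0.32 ± 0.01 (SD, n = 2). The GALP channel was the brighter on each of the 4 arrays, at 16562, 13566, 18255 and 14850 against control signals of 14307, 9879, 14067 and 12471 in the same array order as for Sult1e1. Within Cy5 the GALP signals (16562 and 18255) lay above the control signals (9879 and 12471), and within Cy3 the groups overlapped. No array gave a Feature Extraction p-value under 0.01.

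Sult1b1 sulfonates thyroid hormones and small phenols. Its brighter probe gave log2 ratios of -0.11, 0.08, 0.21 and 0.06 in the same array order, with a mean of 0.06 ± 0.11 (SD, n = 2). The dimmer probe (chromosome 5, 87942561 to 87942620) gave 0.11, -0.35, 0.39 and -0.17, with a mean of 0.00 ± 0.17. On the dimmer probe the sign followed the dye, since both ratios were positive with GALP in Cy5 and negative with GALP in Cy3. The probes differed by less than their SD over pools, and both were within their SD of 0.

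Within 150 kb of the Sult1e1 probe there were 10 probes of 6 genes, and 4 of these genes had signal in all 8 channels. Besides the members, Ugt2a1, a glucuronosyltransferase, gave mean ratios of -0.15 ± 0.01 and -0.10 ± 0.05 on the 2 probes with signal. Sult1e1 was the only gene among them that the rule of the methods called. Around Sult2a8 there were 4 probes, and 2 had signal, those of Sult2a8 and Sult2a7.

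**Figure D2:**
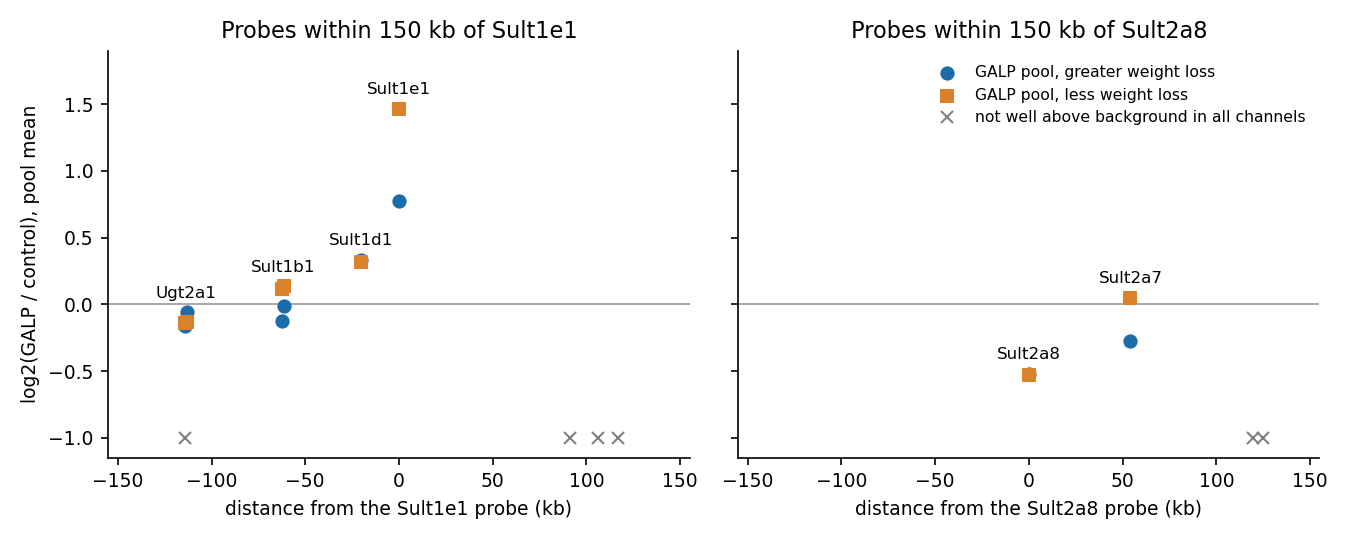
The horizontal axis is the distance along the chromosome from the Sult1e1 probe (left) or the Sult2a8 probe (right) in kb, and the vertical axis is the log2 ratio of GALP over control of each pool. Circles are the greater-loss pool and squares the less-loss pool, and where a circle is not seen it lies under the square. Grey crosses at the bottom mark only the place of probes that were not well above background in all channels, and the Sult1e1 points stand above those of Sult1d1, Sult1b1 and Ugt2a1.

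Sult1a1, the main phenol sulfotransferase of liver, had log2 ratios of 0.17 and 0.39 in the greater-loss pool and 0.21 and 0.48 in the less-loss pool. The mean was 0.31 ± 0.04 (SD, n = 2), close to that of Sult1d1. In both pools the ratio was higher with GALP in Cy3, by 0.23 and 0.28, which is more than the 0.06 by which the pools differed. No Feature Extraction p-value was under 0.01. Of the 10 member probes, 3 (Sult1a1, Sult1d1 and Sult1e1) were above 0 on all 4 arrays. On all 4, 1 (Sult2a8) was below 0. Over all probes the shares were 5.33% and 6.63%. Those shares include probes at background, where the software can set the ratio to 0. Signal in all 8 channels was found for 14445 of 41037 probes and for 8 member probes. As the contrast chose the genes, nothing is read from these counts.

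Sult2a8 sulfonates bile acids in the liver. Its control signal was 17750, 12088, 17421 and 14907, and its GALP signal was 11621, 9001, 12259 and 10200.5, in the array order used above. The GALP channel was the dimmer on each of the 4 arrays. Within Cy3 the groups did not overlap, and within Cy5 the higher GALP signal (12259) was just above the lower control signal (12088). The log2 ratio was -0.61 and -0.43 in the greater-loss pool and -0.51 and -0.55 in the less-loss pool. The pool values of -0.52 and -0.53 (0.698-fold and 0.694-fold) gave a mean of -0.52 ± 0.01 (SD, n = 2). Feature Extraction p-values were under 0.01 on 2 of 4 arrays (0.00386 and 0.00918, against 0.0406 and 0.0154 on the others). The strict rule therefore did not call the gene, which the study lists among those lowered. In pooled liver RNA, fewer cells that express a gene and less RNA per cell cannot be told apart.

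**Figure D3:**
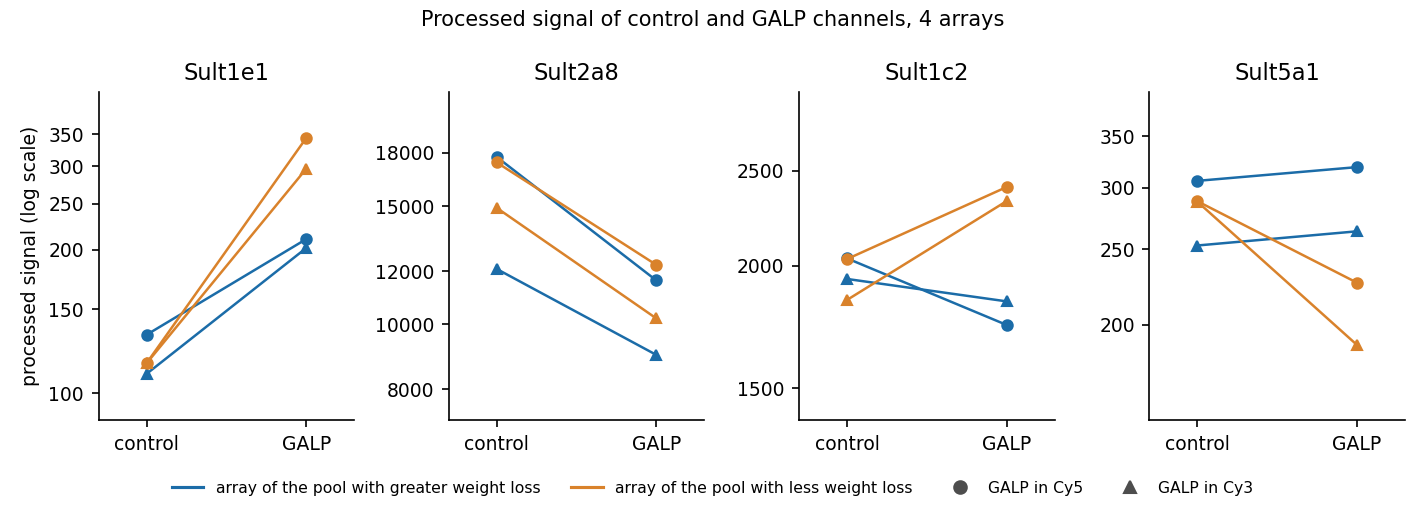
Each panel shows the processed signal of 1 probe on a log axis, with a line from the control channel to the GALP channel of each of the 4 arrays. Blue lines are arrays of the greater-loss pool, orange lines those of the less-loss pool, circles have GALP in Cy5 and triangles GALP in Cy3. All lines rise for Sult1e1 and fall for Sult2a8, and for Sult1c2 and Sult5a1 the blue and orange lines run in opposite directions. Panels have different axes, and signals of different probes are not comparable.

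Sult1c2, a phenol sulfotransferase known from stomach and kidney, was lower than control in one pool and higher in the other. Its log2 ratio was -0.23 and -0.08 in the greater-loss pool and 0.24 and 0.33 in the less-loss pool. The mean of 0.07 ± 0.31 (SD, n = 2) was smaller than its SD. The greater-loss pool was below the other by 0.44, and this difference was -0.47 with GALP in Cy5 and -0.41 with GALP in Cy3. The shared control cancels in the difference. No array gave a Feature Extraction p-value under 0.01.

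Sult5a1, whose substrates are little known, showed the opposite order. The log2 ratio was 0.06 and 0.06 in the greater-loss pool and -0.35 and -0.61 in the less-loss pool, with a mean of -0.21 ± 0.38 (SD, n = 2). The greater-loss pool was above the other by 0.54 (0.41 with GALP in Cy5 and 0.67 with GALP in Cy3). With normexp correction this difference was 0.21 and the mean ratio -0.07. Only the less-loss array with GALP in Cy3 had a Feature Extraction p-value under 0.01 (0.00761). The probe was dim, with 23.6 to 78.8 units above the local background in the GALP channels and 28 to 50.9 in the control channels before scaling.

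The difference of the pools in Sult1e1 was -0.69 (-0.90 with GALP in Cy5 and -0.48 with GALP in Cy3). With normexp correction it was -0.15, beside -0.35 for Sult1c2 and 0.21 for Sult5a1, so the order of sizes among these genes depends on the correction. For Sult1a1, Sult1d1 and Sult2a8 it was -0.06, 0.02 and 0.01. The sign of this difference depended on the dye for Sult1b1, Sult1d1 and Sult2a8. The median size of the difference was 0.15 over the 7 members and 0.10 over all 10667 genes with signal. With 1 pool on each side, none of these differences could be tested.

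Markers of stomach, kidney and other cells were read beside Sult1c2 and Sult5a1. Of 12 stomach and intestine markers on the array, 3 were well above background in all 8 channels, and Cdx1, Cdx2, Gkn1 and Vil1 in none. The trefoil factor Tff2 had a log2 ratio of -3.79 in the greater-loss pool and 0.68 in the less-loss pool, which is the same order as Sult1c2. Of the other 2 markers with such signal, Lyz1 ran the other way (0.62 and 0.04) and Fabp2 was at -0.28 and -0.19. Gkn2 and Tff1 were called lower by the rule of the methods, and were well above background in 4 control channels each and in 0 and 1 of the 4 GALP channels. The summed signal of the 12 probes was 26161.6 to 35200 in the control channels. It was 21528 to 26645 in the greater-loss pool and 29431 to 29895 in the less-loss pool. Such a sum follows its brightest probes and is not an amount of cells, here and for the other markers below. Of 8 kidney markers, 5 were not well above background in any channel, among them Umod and Kap, and the sums were 149 to 492, 119 to 168 and 159 to 796. The part of these cells in the ratios of Sult1c2 and Sult5a1 was not tested.

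Beside Sult1e1, the 7 macrophage markers had a summed signal of 13349.6 to 14771 in the control channels, 15010.5 to 18914 in the greater-loss pool and 17001 to 19211 in the less-loss pool. Of these 7 markers 3 were above 0 on all 4 arrays, and the scavenger receptor Marco was called higher at 0.87 ± 0.25 (SD, n = 2). Among the other macrophage markers, Cd68 (0.55 ± 0.17), Adgre1 (0.43 ± 0.01) and Csf1r (0.27 ± 0.09) were above 0 in both pools. Clec4f (0.00 ± 0.16), Timd4 (-0.16 ± 0.16) and Vsig4 (-0.07 ± 0.26) were not. None of these was called. The 6 adipocyte markers summed to 8073 to 12648 in the control channels, 14783.5 to 16967 in the greater-loss pool and 17428 to 17933 in the less-loss pool, with Lep and Retn not well above background in any channel. The 3 adipocyte markers with signal in all channels disagreed, with Cidec at 0.75 ± 0.01, Cfd at -0.81 ± 0.11 and Adipoq at 0.38 in the greater-loss pool and -0.26 in the less-loss pool. Bile duct markers (6 genes) summed to 6886 to 7841, 6136 to 6846 and 8778 to 10586 in the same order of groups, with Cftr and Epcam not well above background. The 8 markers of stellate and endothelial cells summed to 23075 to 31984, 23974 to 24586 and 24665 to 28922. Of the 7 with signal in all channels, 3 were above 0 on all 4 arrays and 0 were below 0 on all 4. The collagens Col1a1 (0.66 ± 0.23) and Col3a1 (0.45 ± 0.17) were among the 3, and Clec4g was lowest at -0.12 ± 0.02. The 7 hepatocyte markers summed to 198759 to 294703, 217001 to 307931 and 222383 to 234317. Whether these cells take part in the Sult1e1 ratio was not tested.

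Sult2b1 sulfonates cholesterol and pregnenolone and is best known from skin. On 3 arrays its processed signals were at a background level between 5.72 and 8.57 in both channels and the software set the ratio to 0. On the less-loss array with GALP in Cy3 the probe was well above background in both channels, at 101 with GALP and 58.2 in the control (log2 ratio 0.79, Feature Extraction p-value 0.0639). Sult3a1, which sulfonates amines, was not well above background in any of the 8 channels, with processed signals of 8.36 to 17.5 for GALP and 8.77 to 21.2 for the control. With signal on 1 array for Sult2b1 and on none for Sult3a1, no pool or mean ratio is given for either gene.

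The promoters of Sult1e1 and Sult2a8, the members with the highest and the lowest ratio, are shown from 250 bases before to 50 bases after the start site, as RefSeq gives them on GRCm38.p6, along the minus strand. This build differs from that of the probe positions. Capitals mark matches to 5 short motifs, searched on either strand. The core of many nuclear receptor sites was written AGGTCA. That of steroid receptor sites was written AGAACA. STAT sites were searched as TTCNNNGAA. For HNF1, a hepatocyte factor, the core GTTAAT was used. The TATA box was written TATAAA. Sult2a8 has 2 start sites in the table.
Sult1e1, chr5:87591562-87591861: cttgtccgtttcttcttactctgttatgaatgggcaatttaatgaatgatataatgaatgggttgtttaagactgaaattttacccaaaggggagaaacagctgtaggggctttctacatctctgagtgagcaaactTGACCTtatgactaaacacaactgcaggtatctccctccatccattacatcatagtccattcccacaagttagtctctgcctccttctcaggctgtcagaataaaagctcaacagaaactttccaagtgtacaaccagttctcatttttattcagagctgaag
Sult2a8, upstream start, chr7:14446538-14446837: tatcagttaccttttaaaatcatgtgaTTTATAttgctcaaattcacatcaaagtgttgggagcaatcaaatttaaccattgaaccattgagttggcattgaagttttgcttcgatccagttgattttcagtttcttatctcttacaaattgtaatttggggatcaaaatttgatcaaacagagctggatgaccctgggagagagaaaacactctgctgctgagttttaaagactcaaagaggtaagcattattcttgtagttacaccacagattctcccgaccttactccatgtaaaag
Sult2a8, downstream start, chr7:14438502-14438801: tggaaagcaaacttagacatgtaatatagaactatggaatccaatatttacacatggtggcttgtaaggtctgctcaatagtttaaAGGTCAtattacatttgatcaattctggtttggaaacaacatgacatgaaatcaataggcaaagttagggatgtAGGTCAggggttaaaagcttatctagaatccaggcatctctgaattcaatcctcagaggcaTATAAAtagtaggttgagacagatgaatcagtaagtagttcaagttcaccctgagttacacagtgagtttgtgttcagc
The Sult1e1 promoter held a single match, AGGTCA on the opposite strand (written TGACCT) at position -113. The downstream Sult2a8 promoter held AGGTCA at -164 and -90 and TATAAA at -29, and the upstream one held TATAAA on the opposite strand at -223. Of all 32851 promoters of this length in the table, 16.3% held the nuclear receptor core, 19.0% the steroid receptor core, 8.3% the STAT site, 7.1% the HNF1 core and 13.6% the TATA box. Matches did not overlap one another in the promoters shown, and a match is only a run of letters.

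The genes with the pattern over the 4 arrays most like that of Sult1e1, by Euclidean distance among 15713 probes with signal, were Mt1 (distance 0.39), Osbpl5 (0.42) and Cyp2b13 (0.44). Mt1, a metallothionein, had log2 ratios of 0.88, 0.86, 1.72 and 1.65 in the array order used above, and its mean was 1.28 ± 0.58. For Osbpl5, an oxysterol-binding protein homologue, the mean was 1.01 ± 0.30, and for Cyp2b13, a cytochrome P450, 0.93 ± 0.42 (SD, n = 2). The genes most like Sult2a8 were Nudt7 (distance 0.10), Acsl3 (0.11) and Nsmf (0.13), with means of -0.50 ± 0.06, -0.49 ± 0.04 and -0.52 ± 0.05. Nudt7 is a peroxisomal hydrolase of coenzyme A and Acsl3 activates long-chain fatty acids.

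The rest of the sulfonation pathway was read from 5 lists of 87 genes, of which 80 were on the array (130 probes) and 52 had signal in all 8 channels. The rule of the methods called 0 of them higher and 0 lower. With limma, a moderated test of the 2 pool ratios against 0 with Benjamini-Hochberg adjustment over all probes, 0 list probes passed an adjusted p of 0.05 (smallest 0.374), and 15 had an unadjusted p under 0.05. Over all probes limma gave 0% at the adjusted threshold and 11.6% at an unadjusted p under 0.05.

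Sulfate uptake and PAPS supply held 9 genes with signal, with a median log2 ratio of -0.01 (-0.07 in the greater-loss and 0.04 in the less-loss pool). The highest were the PAPS synthase Papss2 (0.06 ± 0.20) and Slc35b3, which carries PAPS into the Golgi (0.04 ± 0.10), and the lowest the PAPS synthase Papss1 (-0.20 ± 0.06) and the sulfate transporter Slc13a4 (-0.14 ± 0.39). Papss2 was negative with GALP in Cy5 and positive with GALP in Cy3 in both pools. Slc13a4 was -0.38 and -0.47 in the greater-loss pool and 0.12 and 0.15 in the less-loss pool.

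The 13 sulfatases and their activators all had signal, and their median was 0.00 over both pools, -0.05 in the greater-loss pool and 0.19 in the less-loss pool. Steroid sulfatase (Sts), which removes the sulfonate that Sult1e1 and Sult2b1 add to steroids, was at 0.26 ± 0.06. Next came the heparan sulfatase Sulf2 at 0.24 ± 0.25, and the lowest were the lysosomal enzymes Arsg (-0.38 ± 0.11) and Sgsh (-0.23 ± 0.00). Of 24 sulfatase probes 4 had an unadjusted limma p under 0.05.

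Among the other cytosolic sulfotransferases, 9 of 12 were on the array. Sult2a3, Sult2a4, Sult2a5, Sult2a6, Sult3a2 and Sult6b1 were not well above background in any channel. Sult1c1 was at 0.29 ± 0.06, but its ratio was 0.56 and 0.60 with GALP in Cy5 and -0.06 and 0.07 with GALP in Cy3. Sult2a7, next to Sult2a8, was at -0.11 ± 0.23 and Sult4a1, a brain form, at -0.16 ± 0.21 (SD, n = 2). The ratios of Sult2a7 were -0.26, -0.30, 0.15 and -0.05, all closer to 0 than those of Sult2a8 on the same arrays.

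Golgi sulfotransferases were represented by 32 of 35 genes, 12 with signal and a median of -0.02 (0.03 in the greater-loss and -0.02 in the less-loss pool). The highest were the chondroitin sulfotransferases Chst15 (0.22 ± 0.12) and Chst7 (0.12 ± 0.17), and the lowest Gal3st1, which makes sulfatide (-0.16 ± 0.44), and the heparan sulfotransferase Hs3st3b1 (-0.13 ± 0.20). All 16 transcription factors known to act on Sult genes were on the array, 15 had signal, and their median was 0.07 (0.03 in the greater-loss and 0.02 in the less-loss pool). The nuclear receptor Nr1i3 (0.23 ± 0.17) was among the highest, and the estrogen receptor Esr1 (-0.27 ± 0.07) and Stat5b (-0.15 ± 0.08) lowest, all in both pools.

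**Figure D4:**
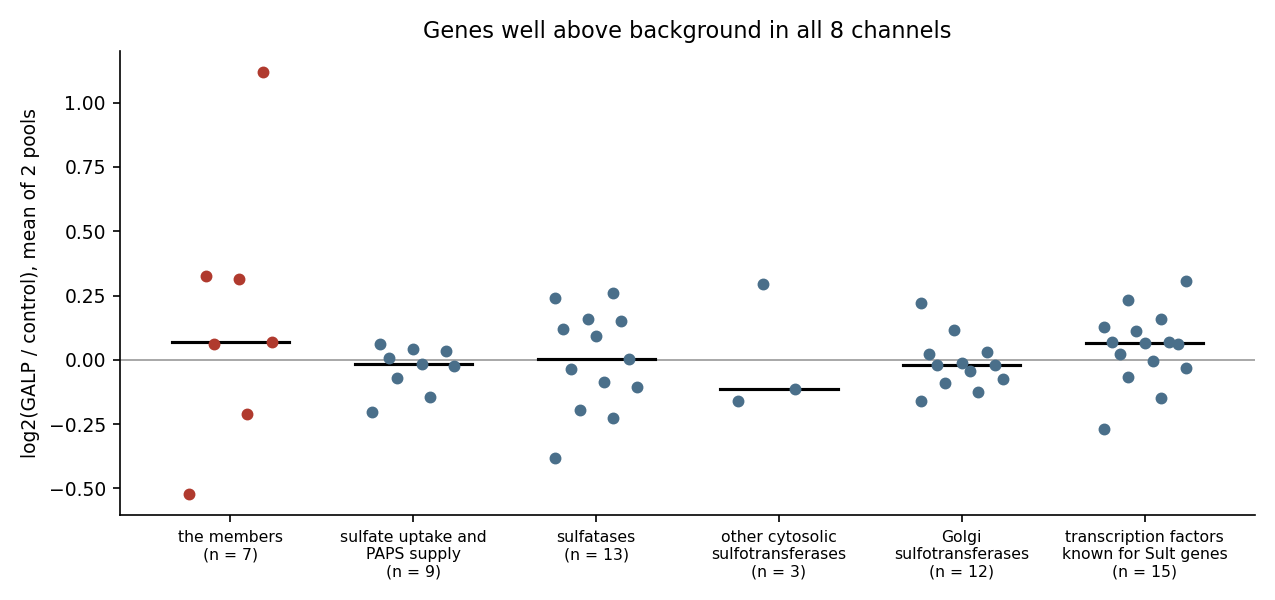
The vertical axis is the mean log2 ratio of GALP over control of the 2 pools, for genes well above background in all 8 channels, with 1 probe a gene. Red dots are the members and blue dots the genes of the 5 pathway lists, and black bars are medians. The list genes lie between those of Sult2a8 and Sult1e1, and the members, which were chosen for their values, run from -0.52 (Sult2a8) to 1.12 (Sult1e1).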

How the data were processed

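Liver RNA of 1 control pool (8 mice) and 2 GALP pools (4 mice each) was measured on 4 two-colour Agilent arrays of 1 slide, and each GALP pool was labelled with either dye. The authors' images were read by Feature Extraction, version 12.0.3.1 per the file headers and 11.0.1.1 in the submitters' processing notes, which subtracted the background, normalized the dyes and gave the processed intensity of each channel, in the deposited files. The deposited log10 ratio is Cy5 over Cy3, set to 0 by the software where both channels were at background, and the deposited p-value comes from its error model. The series table holds log10 ratios turned to GALP over control and was used as an alternative. Its scale and direction were read from the scanner ratios, of which 64.8% to 70.6% were equal within 0.001. A weight loss group stands in the labels of the control channels too, whereas 1 control pool is described in the methods, and this was followed.

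From these, log2 ratios of GALP over control were made without the spots flagged as outliers, and spots of a probe, then the arrays of a pool, were averaged. The brightest probe stood for a gene. The rule of the methods was applied strictly, on all 4 arrays. limma 3.58.1 in R 4.3.3 (lmFit, eBayes, 1 residual degree of freedom) tested all 41037 probes against 0 and was used for the pathway lists only. Its p-values are for the mean of the 2 pool ratios against 0, with a variance between the pools that is moderated over all probes. They leave out the spread of the control. Both procedures were run on simulated data, with set shifts larger than any ratio of the list genes with signal and without a shared control. This does not show whether changes as small as those of the lists would be found. Named genes are all members, in each pathway list the genes called and the 2 highest and 2 lowest (1 gene is not reported here), and the 3 genes nearest in pattern to the highest and the lowest member. Some markers were named after their values were seen. The members, lists, rule and tests were chosen with earlier results of these data known.

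The alternatives were normexp correction (offset 50) with loess, the series table, no outlier filter, centring, each dye orientation, each pool left out, the mean over probes, other p and fold rules, and for limma a filter on signal, a trend and the pool as a random block. Probe positions are on mm9 and promoter sequences are from RefSeq on GRCm38.p6. The RefSeq table held the accession of 9 of the 10 member probes, with the same symbol. Python 3.11.15, pandas 2.3.3, numpy 2.4.6 and matplotlib 3.10.9 were used.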

Additional observations from a re-analysis of the deposited data

Results flagged for a closer look

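The log2 ratios of Sult1c2 and of Sult5a1 had opposite signs in the pools, with the same sign on both arrays of a pool. How many of all genes show such a split was not counted, so whether it is unusual is not known. For Sult1c2 both arrays of the pool with greater weight loss were below 0 and both arrays of the other pool above 0, a difference of -0.44 on the log2 scale. For Sult5a1 the signs were the other way round and the difference was 0.54, or 0.21 with normexp correction. Its ratios in the pool with greater weight loss were only 0.06 and 0.06, with Feature Extraction p-values of 0.78 and 0.773. No change from control is read for Sult5a1 in that pool. The sulfate transporter Slc13a4 (-0.55) and the stomach marker Tff2 (-4.47) differed in the same manner as Sult1c2, and the adipocyte marker Adipoq (0.63) in that of Sult5a1. The differences were not tested, since each weight loss group is 1 pool.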

How the results depend on the processing

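The median ratio of the members was 0.07, and 0.29 without the pool with greater weight loss and 0.060 without the pool with less weight loss. Members called higher numbered 1 (Sult1e1), and 0 with normexp correction and an offset of 50. In the 2 fits without 1 pool the counts were 1 higher and 0 lower. Members called lower numbered 0, and 1 (Sult2a8) with a p-value under 0.01 on at least 1 array of each pool and 1 with no p-value. The median size of the difference between pools over the members was 0.15, and 0.32 with GALP in Cy5 only. The rule called 0 pathway genes higher, and 1 with GALP in Cy3 only, and 0 lower in each setting tried. Limma passed 0 list probes in each of 9 other settings, with a smallest adjusted p between 0.0841 and 0.578. Over all probes it passed 95 with normexp correction, 106 with the pool as a random block, 1 over the 15713 probes with signal and 0 otherwise. The rule called 9 probes higher and 26 lower with normexp correction, against 24 and 54. The cause of these changes was not tested. The Sult1e1 ratio ran from 0.31 to 1.14 over 7 settings and that of Sult2a8 from -0.56 to -0.49. The called Sult1e1 ratio kept its sign, and the called markers were not run under the alternatives. Of 338 values of single genes and lists under an alternative, 292 moved by less than their SD and 46 by more. Part of the 292 could not have moved by more, so the count does not measure how stable the results are. For a single gene, the value without 1 pool is 1 of the 2 values behind its mean and SD. The same holds for a pool difference in 1 dye orientation, and centring on all probes left the member ratios unchanged. Centring on the probes with signal was chosen after seeing the data. Each ratio compares GALP and control RNA within 1 array. Single mice could not be paired, because their RNA was pooled, and the arrays of a pool are dye swaps of the same extracts. Dim signal limits Sult1e1, Sult5a1, Sult2b1 and Sult3a1.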
